A study of Mus musculus with 24 samples.

Results

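Cholesterol synthesis and its control by SREBP2 were followed in mouse liver through 27 named genes, chosen as all array probes whose annotated symbol is one of them. Of the 27 genes, 23 had a probe (36 probes in all), and 21 genes were measured after a filter on dim probes, out of 7272 genes measured on the array. Acat2, Mvk, Fdft1 and Soat2 had no probe in the annotation used here, and the probes of Mbtps2 and Ggps1 were above the detection limit on 0 arrays. The 21 measured genes were detected on all 24 arrays, so none of them entered through 1 genotype alone. The older symbol Sc4mol is given below under its current name Msmo1.

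The livers came from DKO mice, labelled Reverbalpha/beta Alb Cre+, and from wild-type (WT) mice, labelled Reverbalpha/beta Alb Cre-. The DKO livers lack Rev-erb alpha and Rev-erb beta, nuclear receptors of the circadian clock that repress transcription, and the albumin promoter that drives Cre directs the deletion largely to hepatocytes, so that other cells of the liver may keep both receptors. All mice were male, 20 weeks old and on a c57Bl6/J background, and the labels do not say whether the WT mice carried floxed alleles. Livers were taken every 4 h at ZT0, ZT4, ZT8, ZT12, ZT16 and ZT20 (hours after lights on), with 1 RNA sample for each genotype and time, hybridised to 2 Illumina bead arrays as technical replicates. The labels do not say how many mice an RNA sample holds, so p-values measure only the spread over the 6 times, which stand in for replicates.

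Cholesterol is made from acetyl-CoA through mevalonate, isoprenoid diphosphates, squalene and lanosterol, and the liver is a major site of this synthesis. Most of the enzymes are transcribed under SREBP2, a membrane-bound factor that SCAP escorts from the endoplasmic reticulum to the Golgi, where the site-1 and site-2 proteases release its active part. When sterols are plentiful the INSIG proteins hold SCAP and SREBP2 back, and in mouse liver Insig2 has been described as a rhythmic gene linked to Rev-erb alpha.

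Promoters are shown for the genes whose levels matter most below. Of the 23 genes with a probe, 20 matched RefSeq promoter entries of build GRCm38.p6 (26 promoters, from 250 bases before to 50 bases after a start), and Fdps, Sqle and Stard4 did not. The sequences below are the 250 bases before the start, written 5′ to 3′ along the strand of the gene. Capitals mark matches on either strand to TCACNCCAC (the sterol regulatory element bound by SREBP), CCAAT (NF-Y), GGGCGG (Sp1), CACGTG (the E-box) and AGGTCA (the core of the element shared by Rev-erb and ROR receptors). Pmvk, Idi1 and Tm7sf2 are the genes that passed the test of daily mean, Insig2 had the largest daily range in WT livers among the 21 genes, and Hmgcs1 held the only sterol regulatory element by these letters. Pmvk is shown at the most upstream of 2 listed starts (chr3:89454291-89454540, plus strand) and Insig2 at the most upstream of 3 (chr1:121332590-121332839, minus strand). Insig1 is shown for its overlapping AGGTCA and CACGTG (chr5:28071162-28071411, plus strand). Idi1 is shown at chr13:8885356-8885605 (plus strand), Tm7sf2 at chr19:6067851-6068100 (minus strand) and Hmgcs1 at chr13:119690101-119690350 (plus strand).
Pmvk: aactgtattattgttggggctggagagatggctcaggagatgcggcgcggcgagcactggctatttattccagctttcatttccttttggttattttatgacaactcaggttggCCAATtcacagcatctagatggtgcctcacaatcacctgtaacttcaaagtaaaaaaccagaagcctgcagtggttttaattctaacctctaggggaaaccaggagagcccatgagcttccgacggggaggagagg
Idi1: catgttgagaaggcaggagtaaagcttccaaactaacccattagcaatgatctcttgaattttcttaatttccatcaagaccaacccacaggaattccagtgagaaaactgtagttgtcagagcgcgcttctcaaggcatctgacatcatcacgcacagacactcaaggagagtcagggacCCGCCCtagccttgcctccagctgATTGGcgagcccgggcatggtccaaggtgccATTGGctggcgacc
Tm7sf2: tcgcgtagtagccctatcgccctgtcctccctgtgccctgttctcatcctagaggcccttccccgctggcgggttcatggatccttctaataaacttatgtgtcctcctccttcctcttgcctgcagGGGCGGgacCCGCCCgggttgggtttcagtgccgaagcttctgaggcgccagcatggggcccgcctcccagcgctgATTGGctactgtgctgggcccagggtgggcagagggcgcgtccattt
Insig2: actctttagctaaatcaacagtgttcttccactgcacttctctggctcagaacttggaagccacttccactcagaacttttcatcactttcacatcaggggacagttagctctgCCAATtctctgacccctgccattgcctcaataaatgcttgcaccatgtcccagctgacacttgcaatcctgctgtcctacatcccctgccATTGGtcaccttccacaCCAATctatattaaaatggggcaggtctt
Insig1: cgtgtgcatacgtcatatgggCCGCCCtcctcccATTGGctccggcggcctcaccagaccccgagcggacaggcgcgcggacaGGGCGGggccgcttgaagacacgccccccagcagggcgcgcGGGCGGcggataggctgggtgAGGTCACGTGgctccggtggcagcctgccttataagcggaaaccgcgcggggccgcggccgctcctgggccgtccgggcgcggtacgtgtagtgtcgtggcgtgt
Hmgcs1: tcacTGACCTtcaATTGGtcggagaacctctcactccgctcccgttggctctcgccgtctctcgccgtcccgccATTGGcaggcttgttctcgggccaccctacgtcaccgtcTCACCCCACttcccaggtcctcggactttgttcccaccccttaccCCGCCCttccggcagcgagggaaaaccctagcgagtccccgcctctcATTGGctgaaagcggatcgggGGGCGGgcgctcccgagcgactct

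CCAAT lay in 17 of the 26 promoters (65.4%), against 37.4% of all 32851 promoters of the same length. GGGCGG lay in 20 of them (76.9%), against 35.7% of all promoters. CACGTG was found in 6 (23.1%), from 5 genes, against 7.15% of all promoters. AGGTCA lay in 5 (19.2%), from 3 genes, against 16.3% of all promoters. TCACNCCAC lay in 1 (3.85%), that of Hmgcs1, against 1.24% of all promoters. None of these 5 strings contains another, but in the Insig1 promoter an AGGTCA and a CACGTG share letters, at -105 and -101 from the start. Each match describes letters of the reference sequence and not a bound site. The printed promoters of Pmvk, Idi1, Tm7sf2 and Insig2 each held CCAAT on 1 strand or the other, and AGGTCA was matched in those of Hmgcs1 and Insig1. For Pmvk and Insig2 the CCAAT depends on the start shown, since their other listed starts held none.

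The raw median signal ran from 245 to 341 units over the 24 arrays, and 34.8 to 40.2% of probes were detected. Values below are normalized log2 intensities of 1 probe, so levels are compared between samples and never between genes, and fewer cells of a type cannot be told apart from less RNA per cell. Between the arrays of a sample the members differed little, with a median deviation from their mean of 0.053 and a highest of 0.56. The DKO samples of ZT0, ZT4, ZT8 and ZT12 were all on slide 1. The other DKO samples shared slide 2 with the WT samples of ZT0 and ZT4, and the other WT samples were on slide 3. At any single time slide and genotype thus cannot be told apart. Slide 1 held only DKO and slide 3 only WT samples, so differences in daily mean are also largely mixed with slide. The clock genes Nr1d1, Nr1d2, Arntl and Dbp all had a higher daily mean in DKO livers (4 of 4 passed by limma at an adjusted p under 0.05). At single times Nr1d2 was lower at ZT8 (-0.39) and ZT12 (-0.89), Dbp at ZT8 (-0.56) and ZT12 (-0.49), and Arntl slightly at ZT0 (-0.024). The Nr1d1 and Nr1d2 probes check nothing about the deletion, since their position relative to the deleted part is not known here. Of 5 measured hepatocyte markers, Ttr and Apoa1 were near the top of the scale in both genotypes, and 1 fell, Alb (-0.96, limma adjusted p = 0.0134). The Alb probe was above the detection limit on 1 of 12 DKO and 8 of 12 WT arrays. Cps1 and Ass1 did not pass, and their daily means were higher in DKO livers by 0.25 and 0.11. Cps1 was higher at 6 of 6 times and Ass1 at 5 of 6.

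Over the whole day, 3 of the 21 genes fell in DKO livers and 0 rose, by limma at an adjusted p under 0.05. Across all 7272 genes 9.31% passed this test, 4.99% downwards and 4.32% upwards. The 3 were Pmvk, Idi1 and Tm7sf2, enzymes of isoprenoid and sterol synthesis. With slide as a fixed or a random block 0 of the 21 passed, against 0 and 123 of all 7272 genes. With no block and an unadjusted limma p under 0.05 the count was 6 of 21, against 28.6% of all genes (14.2% lower and 14.5% higher). All 6 were lower in DKO livers, the 3 joined by Msmo1, Dhcr7 and Ebp. The daily mean was below 0 (DKO minus WT) for 14 of 21 genes, with a median of -0.16, whereas 53% of all genes were above 0, with a median of 0.018. With arrays scaled by their medians instead, 19 of 21 genes were below 0 and the medians were -0.40 for the 21 genes and -0.20 for all genes. Under that scaling 8 genes passed, with Srebf2, Msmo1, Ebp, Dhcr7 and Stard4 added, all lower in DKO livers. Most calls among all 7272 genes were then lower as well, with 2182 passing, 1996 lower and 186 higher.

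**Figure D1:**
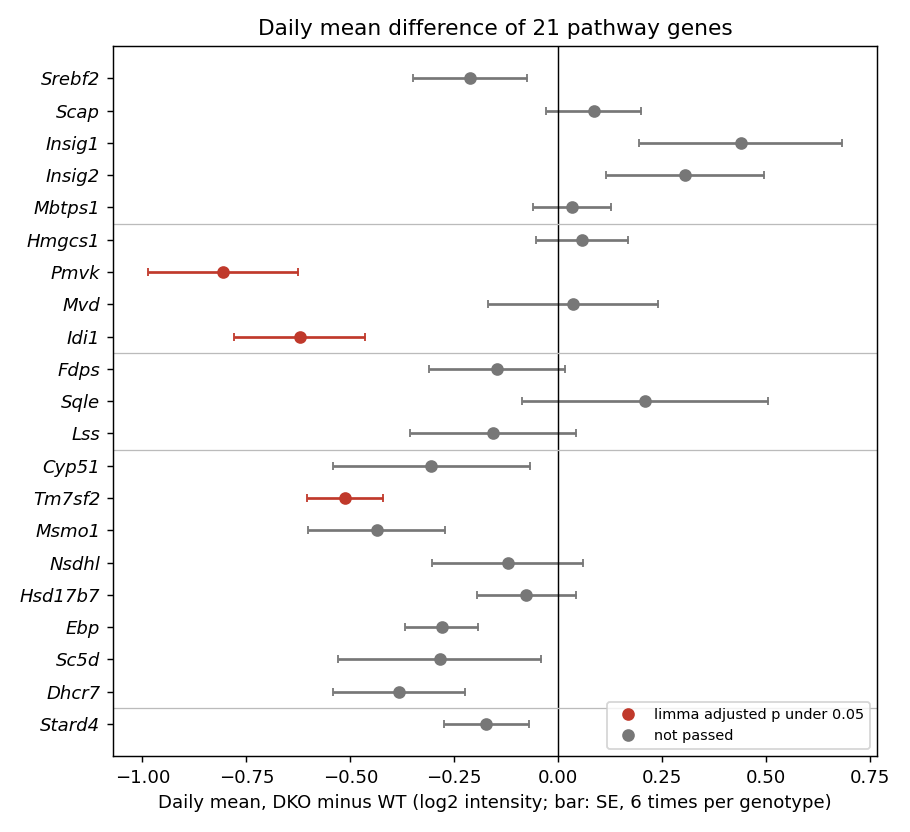
Difference in daily mean between DKO and WT livers (x axis, log2 intensity, DKO minus WT) for the 21 measured genes in order of role from top to bottom; points are estimates, bars are SE over 6 times per genotype, and grey lines part the roles. Pmvk, Idi1 and Tm7sf2 pass the test at -0.81, -0.62 and -0.51, all 8 sterol ring enzymes lie left of 0, and Insig1 lies furthest right at 0.44.

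Pmvk encodes phosphomevalonate kinase, which adds the second phosphate in the mevalonate steps. Its level from ZT0 to ZT20 was 9.31, 9.16, 8.60, 9.35, 8.57 and 9.59 in DKO livers, against 9.88, 9.73, 10.10, 9.67, 9.99 and 10.06 in WT livers. Every DKO sample mean lay below every WT sample mean, although array 2 of DKO ZT20 (9.66) lay above array 2 of WT ZT12 (9.62). How many of all genes separate in this way was not counted. The daily mean was 1.75-fold lower (log2 difference -0.81 ± 0.18, SE, n = 6 times each, limma adjusted p = 0.0266). The distance was widest at ZT8 and ZT16 (-1.41 at ZT16) and narrowest at ZT12 (-0.32). On slide 2 alone, DKO ZT16 and ZT20 differed by -0.72 from WT ZT0 and ZT4, and there genotype and time of day cannot be told apart. A fixed block for slide put it at -0.93 (limma adjusted p = 0.554) and a random block at -0.82 (0.104). The call was lost without ZT0 (adjusted p = 0.0928), ZT4 (0.0609), ZT8 (0.149), ZT16 (0.0839) or ZT20 (0.0825). It was also lost without the single samples DKO ZT0 (0.0542), DKO ZT8 (0.0634), WT ZT0 (0.0562), WT ZT8 (0.0750), WT ZT16 (0.0636) or WT ZT20 (0.0642).

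Idi1 encodes isopentenyl diphosphate isomerase, which interconverts the building blocks of isoprenoids. Its level from ZT0 to ZT20 was 8.66, 8.41, 8.82, 9.15, 8.21 and 8.60 in DKO livers, against 8.91, 9.29, 9.22, 9.54, 9.17 and 9.44 in WT livers. DKO was lower at 6 of 6 times, although the DKO ZT12 value lay above the WT ZT0 value. The daily mean was 1.54-fold lower (-0.62 ± 0.16, SE, n = 6 times each, limma adjusted p = 0.0390). The DKO ZT20 value averaged arrays at 8.04 and 9.16, the widest gap between arrays among the members. Without array 1 of DKO ZT20 the difference was -0.53 (adjusted p = 0.111), and the call was also lost without 1 array of DKO ZT8 (0.0550), DKO ZT12 (0.0595) or WT ZT0 (0.0531). Leaving out any single time ended the call, at adjusted p values of 0.0589 without ZT0, 0.127 without ZT4, 0.149 without ZT8, 0.0806 without ZT12, 0.0789 without ZT16 and 0.124 without ZT20. Among single samples it was kept only without DKO ZT0 or DKO ZT12. It was lost without DKO ZT4 (0.0718), DKO ZT8 (0.0809), DKO ZT16 (0.0623), DKO ZT20 (0.0579), WT ZT0 (0.0538), WT ZT4 (0.0790), WT ZT8 (0.0807), WT ZT12 (0.0923), WT ZT16 (0.0571) or WT ZT20 (0.0922). The same DKO and WT samples on slide 2, taken at different times of day, differed by -0.70. The daily mean differed by -1.01 with a fixed block for slide (adjusted p = 0.456) and by -0.65 with a random one (0.129). With no filter on dim probes, over 16593 genes, the difference was again -0.62 and the adjusted p was 0.0543. The direction stayed downwards in each of these.

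Tm7sf2 encodes a sterol reductase that acts on the product of Cyp51. Its level from ZT0 to ZT20 was 9.42, 9.67, 9.50, 9.82, 9.58 and 9.43 in DKO livers, against 9.99, 9.99, 10.31, 10.04, 10.19 and 9.97 in WT livers. The genotypes did not overlap over the day, and the share of all genes for which this holds was not counted. The daily mean was 1.43-fold lower (-0.51 ± 0.091, SE, n = 6 times each, limma adjusted p = 0.0126). The samples on slide 2 differed by -0.49, again across different times of day. A fixed block for slide gave a daily mean difference of -0.50 (adjusted p = 0.564), and a random block one of -0.51 (0.0648). The call was lost without ZT0 (0.0505), ZT8 (0.0753), ZT16 (0.0796) or ZT20 (0.0683), and no single sample or array ended it. Together with Msmo1 and Ebp, these 3 genes made 5 of 21 that were lower in DKO livers at 6 of 6 times, against 9.78% of all genes, and 0 of 21 were higher at 6 of 6 times, against 10.5% of all genes.

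**Figure D2:**
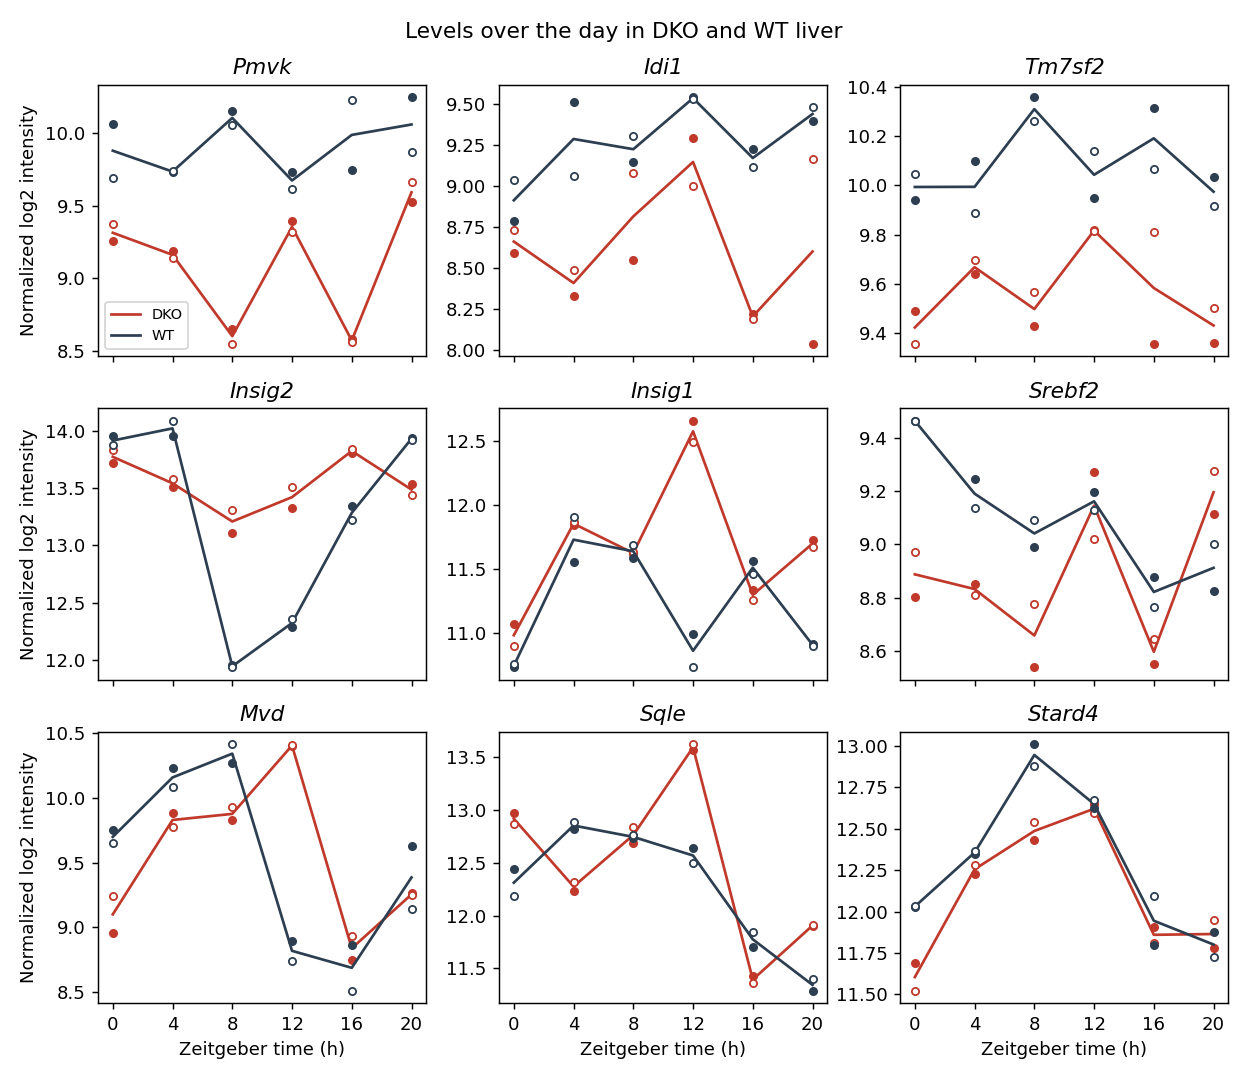
Normalized log2 intensity (y axis) over zeitgeber time (x axis, h) for 9 genes in DKO (red) and WT (dark) livers; filled and open points are the arrays of each sample and lines join their means. The sample means of Pmvk and Tm7sf2 run below WT without overlap. For Pmvk, array 2 of DKO ZT20 lies above array 2 of WT ZT12. Insig2 dips at ZT8 and ZT12 in WT livers, with a range of 2.07 over the day. In DKO livers it is also lowest at ZT8, with a range of 0.61. Mvd and the brightest Insig1 probe peak at ZT12 in DKO livers, a peak that the next brightest Insig1 probe does not have.

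Among the genes that sense sterols and move SREBP2, 5 of 6 were measured and 0 passed the test of daily mean. Srebf2, which encodes SREBP2 itself, was at 8.89, 8.83, 8.66, 9.15, 8.60 and 9.20 in DKO livers, against 9.46, 9.19, 9.04, 9.16, 8.82 and 8.91 in WT livers. DKO values were lower at every time but ZT20, and the ranges of the genotypes overlapped (-0.21 ± 0.14, limma adjusted p = 0.340). Scap, the escort, was at 9.95, 10.36, 10.18, 10.13, 10.26 and 10.56 in DKO livers, against 10.20, 10.29, 10.57, 10.19, 9.79 and 9.90 in WT livers. Its largest separation was at ZT20, where DKO was higher by 0.66, and its daily mean difference was 0.085 ± 0.11 (adjusted p = 0.654). Mbtps1, which encodes the site-1 protease, ran from 9.13 to 9.52 in DKO livers and from 9.17 to 9.59 in WT livers, with a difference of 0.033 ± 0.094 (adjusted p = 0.849).

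The INSIG genes departed from WT at particular times. Insig2 was at 13.77, 13.54, 13.21, 13.42, 13.82 and 13.49 in DKO livers, against 13.91, 14.02, 11.95, 12.33, 13.28 and 13.93 in WT livers. Its lowest value came at ZT8 in both genotypes. In DKO livers its range over the day was 0.61 or 1.53-fold, whereas in WT livers it dropped further at ZT8 and ZT12, a range of 2.07 or 4.20-fold. DKO was higher by 1.26 at ZT8 and by 1.09 at ZT12, and the daily mean difference was 0.31 ± 0.19 (limma adjusted p = 0.323). The fitted 24 h amplitude was 0.20 ± 0.19 in DKO livers (limma adjusted p = 0.914) and 1.05 ± 0.19 in WT livers (adjusted p = 0.109, unadjusted p = 0.00123), with the WT peak at ZT 22.7. The difference in rhythm had an unadjusted limma p of 0.0277 and an adjusted p of 0.714, so it did not pass.

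All 3 Insig2 probes were lowest at ZT8 in WT livers and ranged more widely there than in DKO livers. In DKO livers the dimmest probe was lowest at ZT20 (10.91, against 10.99 at ZT8). The ranges of the 3 probes over the day were 0.61, 0.34 and 1.08 in DKO livers, against 2.07, 2.39 and 3.66 in WT livers. The trough was also seen within 1 slide: on slide 3 the WT ZT8 value was 1.98 below WT ZT20, and on slide 1 the 4 DKO samples from ZT0 to ZT12 ran from 13.21 to 13.77. Without the WT ZT4 sample Insig2 passed the test of rhythm in WT livers (amplitude 1.05, adjusted p = 0.0232; 0.0392 without ZT4 in both genotypes) and that of daily mean (0.51, adjusted p = 0.0374).

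Insig1, the other retention factor and itself a target of SREBP2, was at 10.98, 11.85, 11.62, 12.57, 11.30 and 11.70 in DKO livers, against 10.75, 11.73, 11.64, 10.86, 11.51 and 10.91 in WT livers. On this probe, the brightest of 3, the groups came apart at ZT12 (1.71 higher in DKO) and ZT20 (0.79 higher) and lay within 0.24 of each other at the other times. The next brightest probe did not show this: it was at 11.35 in DKO and 11.53 in WT livers at ZT12, and at 11.50 in DKO and 11.66 in WT livers at ZT20. The dimmest probe did, with 12.14 in DKO and 10.68 in WT livers at ZT12, and 11.54 in DKO and 10.89 in WT livers at ZT20. Its daily mean difference was 0.44 ± 0.24 (limma adjusted p = 0.270). The 3 Insig1 probes differed in sign, at 0.44, -0.26 and 0.23, so its daily mean and its separation at ZT12 and ZT20 are uncertain, and counts below use the brightest probe.

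Of the mevalonate steps, 4 of 6 genes were measured and 2 passed, Pmvk and Idi1, both downwards. Hmgcs1, HMG-CoA synthase at the entry to the pathway, ran from 15.43 to 16.08 in DKO livers and from 15.51 to 16.11 in WT livers (0.058 ± 0.11, limma adjusted p = 0.771). Its raw signal of 42234 to 70470 units lay close to the highest signal on any array, 74912, and whether the probe was near the upper limit of the scanner was not tested. Mvd, mevalonate diphosphate decarboxylase, was at 9.10, 9.83, 9.88, 10.40, 8.84 and 9.25 in DKO livers, against 9.70, 10.16, 10.34, 8.82, 8.69 and 9.38 in WT livers. It was highest at ZT12 in DKO livers and at ZT8 in WT livers, so that DKO was lower by 0.60 at ZT0 and higher by 1.59 at ZT12. Its daily mean differed little (0.036 ± 0.21, adjusted p = 0.928).

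Of the prenyl and squalene steps, 3 of 5 genes were measured and 0 passed. Sqle, squalene epoxidase, was at 12.92, 12.28, 12.76, 13.59, 11.39 and 11.91 in DKO livers, against 12.31, 12.85, 12.75, 12.57, 11.78 and 11.34 in WT livers. DKO was higher at ZT0, ZT12 and ZT20 and lower at ZT4 and ZT16 (daily mean 0.21 ± 0.30, limma adjusted p = 0.677). Fdps, farnesyl diphosphate synthase, ran from 13.48 to 14.74 in DKO livers and from 13.79 to 14.61 in WT livers (-0.15 ± 0.16, adjusted p = 0.588). Lss, lanosterol synthase, ran from 9.51 to 10.79 in DKO livers and from 10.03 to 10.65 in WT livers (-0.16 ± 0.20, adjusted p = 0.640). Both had their lowest value at ZT16 and their highest at ZT12 in DKO livers.

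All 8 genes of the sterol ring steps after lanosterol were measured, all 8 had a daily mean below 0, and 1 passed, Tm7sf2. Msmo1, a methylsterol monooxygenase, was at 12.92, 12.58, 13.03, 13.55, 12.44 and 12.81 in DKO livers, against 13.01, 13.41, 13.66, 13.61, 13.09 and 13.18 in WT livers. It was lower at 6 of 6 times but missed the threshold (-0.44 ± 0.17, limma adjusted p = 0.125), which it passed without the DKO ZT12 sample (-0.58, 0.0468). Dhcr7, the reductase that yields cholesterol from its direct precursor, was at 9.72, 9.64, 9.79, 10.11, 9.32 and 10.12 in DKO livers, against 9.85, 10.53, 10.49, 10.07, 10.07 and 9.98 in WT livers. Its separation lay at ZT4, ZT8 and ZT16, with differences of -0.89, -0.70 and -0.74 (daily mean -0.38 ± 0.16, adjusted p = 0.152). Cyp51, lanosterol demethylase, was at 11.95, 11.52, 11.99, 12.59, 10.88 and 11.34 in DKO livers, against 12.06, 12.23, 11.98, 12.33, 12.01 and 11.48 in WT livers. DKO reached 1.13 below WT at ZT16 and stood slightly above it at ZT12 (daily mean -0.30 ± 0.24, adjusted p = 0.431).

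The remaining ring enzymes had smaller differences in daily mean, with Sc5d and Ebp close to Cyp51. Ebp, a sterol isomerase, had a small spread and was lower at 6 of 6 times (-0.28 ± 0.087, limma adjusted p = 0.0739). It passed without background correction (0.0418), with the authors' processed values (0.0488) and with an intensity trend in the variances (0.0441). Sc5d, a sterol desaturase, had a difference of -0.29 ± 0.25 (adjusted p = 0.478), with its widest gaps at ZT0 (-0.78) and ZT8 (-0.76). Nsdhl, a sterol dehydrogenase, was at -0.12 ± 0.18 (adjusted p = 0.695), and its 4 probes were all below 0, from -0.12 to -0.42. Hsd17b7, a sterol ketoreductase, was at -0.076 ± 0.12 (adjusted p = 0.708). The sign was positive for Nsdhl without ZT4 or ZT16, for Hsd17b7 without the DKO ZT16 sample, and for Sc5d with a fixed block for slide.

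Stard4, a cytosolic carrier of cholesterol, had a similar course in both genotypes. It was highest at ZT12 and lowest at ZT0 in DKO livers, against ZT8 and ZT20 in WT livers. It was at 11.60, 12.25, 12.49, 12.62, 11.86 and 11.86 in DKO livers, against 12.03, 12.36, 12.94, 12.65, 11.94 and 11.80 in WT livers. Levels were highest at ZT8 or ZT12 and low from ZT16 to ZT0 in both. The amplitude was 0.48 ± 0.10 in DKO livers (limma adjusted p = 0.423, peak at ZT 9.47) and 0.56 ± 0.10 in WT livers (adjusted p = 0.109, peak at ZT 8.41). The WT rhythm passed with median scaling (0.0483) and with an intensity trend (0.0443). The daily mean difference was -0.17 ± 0.10 (adjusted p = 0.299).

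By the limma test of a 24 h rhythm, 0 of 21 genes passed in DKO livers (0.055% of all genes), 0 in WT livers (0.179%), and 0 in the difference between genotypes (0%). At an unadjusted p under 0.05, Stard4 and Mvd were rhythmic in DKO livers, 2 of 21 against 7.4% of all genes. In WT livers they were joined by Insig2, Hsd17b7 and Scap, 5 of 21 against 13.8%. The difference in rhythm reached that level for Insig2 alone, 1 of 21 against 6.19%. The amplitude was lower in DKO livers for 12 of 21 genes, against 58.8% of all genes. A p that misses the threshold does not show that a gene is flat.

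Read time by time, enzymes were lower together in DKO livers at some times and not at others. A gene was counted at a time where the arrays of the genotypes did not overlap and the means differed at least 1.5-fold, with no test since each genotype had 1 RNA sample. At ZT0, 1 gene was higher in DKO livers (12.4% of all genes) and 3 were lower (11.2%). At ZT4, 0 were higher (4.17%) and 5 were lower (4.39%), namely Idi1, Cyp51, Msmo1, Nsdhl and Dhcr7. At ZT8, Insig2 was higher (8.04% of all genes) and 6 were lower (8.4%), namely Pmvk, Lss, Tm7sf2, Msmo1, Sc5d and Dhcr7. ZT12 ran the other way: Sqle, Insig2, Insig1 and Mvd were higher, 4 of 21 against 8.75% of all genes, and 0 were lower, against 9.67%. With median scaling 4 were higher and 3 lower at ZT12, and the Insig1 call there was not seen on its next brightest probe.

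At ZT16, 0 of 21 were higher (5.62% of all genes) and 9 were lower (5.69%), namely Pmvk, Idi1, Fdps, Lss, Cyp51, Tm7sf2, Msmo1, Nsdhl and Dhcr7, which include enzymes of the mevalonate, prenyl and ring steps. At ZT20, Insig1 and Scap were higher (6.44%) and Idi1 was lower (7.33%), whereas with median scaling 0 were higher and 6 lower. Over the 126 comparisons of gene and time, 8 were higher and 24 were lower in DKO livers. At single times 4.17 to 12.4% of all genes were higher and 4.39 to 11.2% lower. For the other settings the shares of all genes were not counted. Under a 2-fold minimum the count of lower calls was 3, and without background correction it was 15, with 5 at ZT16. Which time held the most calls depended on the setting: ZT16 with 9 here, ZT8 with median scaling (1 higher and 13 lower, against 12 lower at ZT16), and ZT12 under a 2-fold minimum (4 higher, against 2 lower at ZT16). Without background correction ZT4, ZT8 and ZT16 had 5 calls each.

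**Figure D3:**
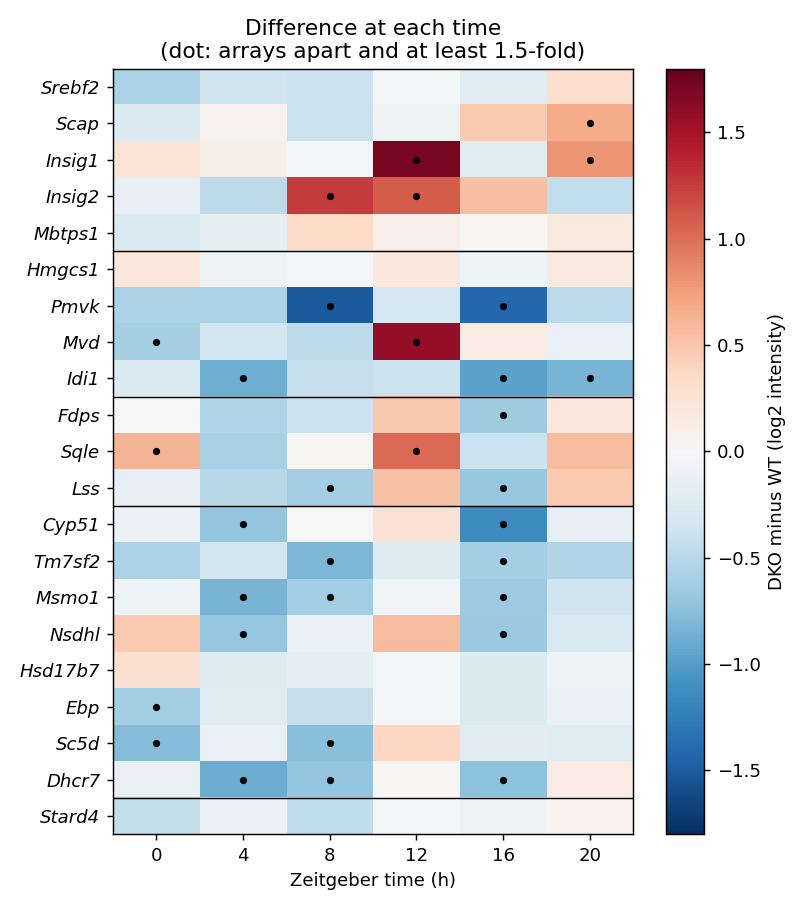
Difference between DKO and WT livers at each zeitgeber time (x axis, h) for the 21 genes (rows, lines part the roles); colour gives DKO minus WT in log2 intensity, red higher and blue lower in DKO livers, and dots mark arrays apart and at least 1.5-fold. Most ring and isoprenoid enzymes are blue at ZT4, ZT8 and ZT16, and the ZT12 column is mostly red or pale with Mvd at 1.59 and the brightest Insig1 probe at 1.71.

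Of the 15 enzymes measured, the number below WT was 10 at ZT0, 15 at ZT4, 13 at ZT8, 6 at ZT12, 14 at ZT16 and 10 at ZT20. Among all genes the share below WT was 50.5%, 47.7%, 48.7%, 48.8%, 48.1% and 47.7% at those times. Each time had 1 RNA sample per genotype, on different slides, and the enzymes are not replicates of a time. Setting each gene to its own mean over the 12 samples, the median of the enzymes from ZT0 to ZT20 was -0.18, -0.11, -0.08, 0.43, -0.67 and -0.28 in DKO livers, against -0.06, 0.30, 0.37, 0.10, 0.09 and -0.08 in WT livers. The DKO median was thus highest at ZT12 and lowest at ZT16, next to each other, whereas the WT median was highest at ZT4 and ZT8.

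**Figure D4:**
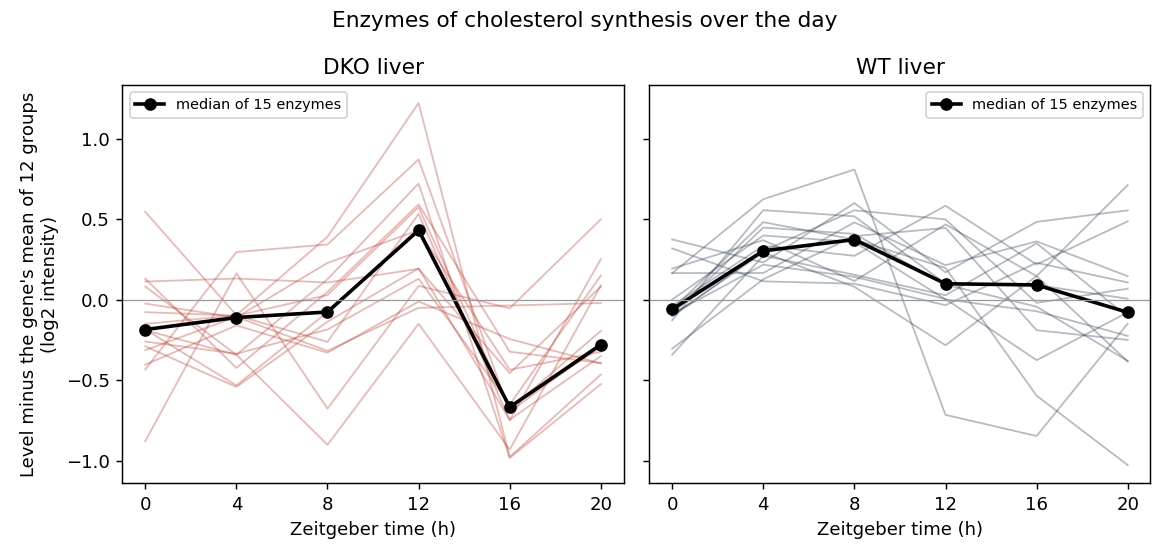
Level of each of 15 cholesterol synthesis enzymes minus its own mean over the 12 samples (y axis, log2 intensity) over zeitgeber time (x axis, h), in DKO livers (left) and WT livers (right); thin lines are genes and the black line is their median. The median reaches 0.43 at ZT12 and -0.67 at ZT16 in DKO livers, and stays between -0.08 and 0.37 in WT livers.

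The time of each gene's own highest and lowest value was counted as well. In DKO livers 13 of 21 had their highest value at ZT12 (15.8% of all genes), 6 at ZT20 (16.1%), 1 at ZT8 (13.7%), 1 at ZT16 (16.1%), and 0 at ZT0 (23.2%) or ZT4 (15.1%). Their lowest value came at ZT16 for 12 (17.6%), at ZT0 for 6 (23.1%), at ZT8 for 2 (13.4%), at ZT4 for 1 (12.8%), and at ZT12 (15.4%) or ZT20 (17.7%) for 0. In WT livers the highest value came at ZT4 for 8 (15.5%), at ZT8 for 6 (15.6%), at ZT12 for 3 (16.1%), at ZT0 for 2 (24.3%), at ZT16 for 1 (12.4%) and at ZT20 for 1 (16.1%). The lowest came at ZT0 for 6 (23.9%), at ZT20 for 6 (16.6%), at ZT16 for 4 (15.4%), at ZT12 for 3 (13.6%), at ZT8 for 2 (15.5%) and at ZT4 for 0 (15%). Highest values thus gathered at ZT12 in DKO livers and were spread over ZT4 and ZT8 in WT livers.

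Differences within 1 slide do not mix slides, and these pairs were chosen after the values were seen. On slide 1, DKO ZT12 was above DKO ZT0 for 9 genes (6.49% of all genes) and below it for 0 (7.88%). DKO ZT12 was above DKO ZT4 for 8 (4.13%) and below for 0 (4.25%), and above DKO ZT8 for 6 (4.19%) and below for 0 (3.58%). The members' medians for these 3 pairs were 0.46, 0.47 and 0.49, against 0.0083, -0.0061 and -0.00074 for all genes. All 3 pairs share the 1 DKO ZT12 sample, the highest DKO sample for 13 of 21 genes, and so largely restate that count. On slide 2, DKO ZT16 was below DKO ZT20 for 4 genes (4.03%) and above it for 0 (3.37%), with a median of -0.40. On the same slide DKO ZT16 was below WT ZT4 for 12 of 21 genes (4.25%) and above it for 0 (5.12%), with a median of -0.60, although these samples also differ in time of day.

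In WT livers ZT8 was set against ZT20 and ZT16 on slide 3, and ZT4 against ZT0 on slide 2. WT ZT8 was above WT ZT20 on slide 3 for 7 genes (5.02% of all genes), among them Sqle at 1.40, Stard4 at 1.14 and Mvd at 0.96, and below it for 2 (6.48%), among them Insig2 at -1.98. WT ZT8 was above WT ZT16 for 4 (3.96%) and below it for 1 (5.16%), Insig2 at -1.34. WT ZT4 was above WT ZT0 on slide 2 for 3 (5.43%) and below it for 0 (5.06%). DKO ZT12 and DKO ZT16, whose contrast is the widest in the DKO course, lay on different slides, and slide and time cannot be told apart in that step.

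No gene of the lists around the pathway passed the limma test of daily mean. Of the further SREBP2 targets 3 were measured, Tmem97 at -0.24, Acss2 at 0.16 and Rdh11 at -0.11, and 0 passed. In sterol efflux and LXR signalling 0 of 4 passed, and Srebf1, which encodes the related factor SREBP1, differed by -0.01. In cholesterol uptake, trafficking and storage 0 of 8 passed, in the isoprenoid branches 0 of 6, in the degradation of the reductase of the pathway 0 of 3, and among proteins that bind SREBP or its coactivators 0 of 3. At an unadjusted p under 0.05 the lists held 3 of 27 measured genes (11.1%, against 28.6% of all genes), Tmem97 lower and Stard5 and Fntb higher in DKO livers.

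Several sums of markers of other cells were highest in the DKO ZT0 sample. The summed linear intensity of 4 measured Kupffer cell and macrophage markers ran from 6911 to 17653 in DKO livers (highest at ZT0), against 4945 to 8516 in WT livers, and that of 3 neutrophil markers from 661 to 5722 (highest at ZT0), against 589 to 1071, and 0 of 4 and 0 of 3 passed (1 of each at an unadjusted limma p under 0.05, Clec4f and S100a8, both higher). Of the neutrophil markers Ngp, Camp and Mpo were not detected. Endothelial markers summed to 15998 to 25803 in DKO livers and 16325 to 18882 in WT livers, with 1 of 5 rising (Lyve1, 0.86, limma adjusted p = 0.0488), and 0 of 4 stellate cell markers passed, with sums of 17430 to 24248 in DKO livers and 16768 to 20111 in WT livers. Sox9, the 1 cholangiocyte marker measured, rose by 0.99 (adjusted p = 0.0213), while Krt19 and Krt7 were not detected. Acute phase genes summed to 68657 to 118526 in DKO livers (highest at ZT0) and 72836 to 87482 in WT livers, and 0 of 6 passed. Without the DKO ZT0 sample the daily means of Pmvk, Idi1 and Tm7sf2 differed by -0.79, -0.68 and -0.51, with adjusted p values of 0.0542, 0.0482 and 0.0251. Clec4f, Vsig4 and Sox9 were higher in DKO livers at 6 of 6 times and Lyve1 at 5 of 6, so leaving out that sample does not remove them. The part of these cells in the results was not tested.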

How the data were processed

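Liver RNA of 2 genotypes at 6 times was measured on 24 Illumina bead arrays. Signals were exported with GenomeStudio (version not given in the sources used here), per the submitters' processing notes. Per the file headers, the deposited intensity is a linear signal averaged over beads and not normalized between arrays. Each probe also has a deposited detection p-value, set against the negative controls of its array. Bead numbers (38.1 to 40.6 a probe on average) and their standard error, other deposited columns, served as a description only. A deposited table of intensity values processed by the authors, whose normalization method is unknown, was an alternative.

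Background was corrected by normexp in limma 3.58.1 (R 4.3.3) with an offset of 16, and values were taken to log2 and quantile normalized. A probe was kept if 2 or more of the 12 groups had it detected (p under 0.01) on both of their arrays, which left 10243 of 25697 probes, and the brightest kept probe of a symbol was used. Of the 21 genes, 16 had 1 kept probe and 5 had several, of which the Insig1 and Mbtps1 probes differed in sign. The 2 technical arrays of a sample were averaged, and the number of such samples limits the precision.

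With limma, a 24 h harmonic model with 1 mean per genotype was fitted to the 12 values of 7272 genes, with Benjamini-Hochberg adjustment over all of them and a threshold of 0.05. SE values come from the moderated fit. Single times had no test.

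The pathway members and all gene lists were chosen with earlier results of these data known. Values at all times are given for members that passed a test, the 6 largest daily mean differences, the 6 largest amplitudes, and Srebf2, Scap, Insig1 and Insig2. Replicate numbers do not pair samples: deviations of same-numbered arrays correlated at -0.05 to 0.05 over 66 pairs of groups. Alternatives covered background, scaling, filters, probes, array averaging, slide, variance model, time as a factor, and left-out times, samples and arrays. Leaving out each single sample other than DKO ZT0 was added after seeing the data.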

Additional observations from a re-analysis of the deposited data

Results flagged for a closer look

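Mvd, mevalonate diphosphate decarboxylase, differed in opposite directions at ZT0 and ZT12. At ZT0 both DKO arrays lay below both WT arrays and the difference, DKO minus WT, was -0.60 on the log2 scale. At ZT12 both DKO arrays lay above both WT arrays and the difference was 1.59. Each time had 1 RNA sample per genotype, and the difference between the times was not tested. DKO ZT0 and ZT12 shared slide 1, while WT ZT0 lay on slide 2 and WT ZT12 on slide 3. Within slide 1 Mvd was 1.31 higher in DKO ZT12 than in DKO ZT0.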

How the results depend on the processing

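The count of members that differed in daily mean was 3. It was 8 with median scaling, 8 with the 24 arrays as separate samples and no replicate block, and 7 with the replicate block. It was 0 with slide as a fixed block, 0 with slide as a random block, and 0 without ZT0, ZT8, ZT16 or ZT20. It was 1 without ZT4 and 1 without any of the samples DKO ZT8, WT ZT0, WT ZT8, WT ZT16 or WT ZT20. Leaving out single arrays gave 2 to 3. Members rhythmic in WT livers numbered 0, against 1 with median scaling, 1 with an intensity trend and robust variances, 1 without ZT4, 1 without the WT ZT4 sample, 8 with separate arrays and 7 with the replicate block. Members rhythmic in DKO livers numbered 0, against 3 with separate arrays and 3 with the block, and members differing in rhythm 0, against 2 and 1. At single times, 8 were higher and 24 lower, against 5 and 3 at a 2-fold minimum. Lower calls numbered 15 without background correction, 41 with median scaling and 14 with the authors' values. Shares of all genes at single times and in rhythm were not counted under these settings. Separate arrays treat technical replicates as independent, which raises counts by construction. Otherwise the cause was not tested. Over all genes 677 passed in daily mean, against 2182 with median scaling (1996 lower in DKO livers), 123 with a random block for slide and 0 with a fixed one.

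Pmvk, Idi1 and Tm7sf2 kept their direction under the 56 alternatives run for each, the samples on slide 2 among them, within -1.05 to -0.61, -1.01 to -0.42 and -0.76 to -0.41. Most of the alternatives left out a time, a sample or an array, which could hardly reverse genes that were lower at 6 of 6 times. The threshold was missed under 13, 23 and 6 of the 56, and the comparison on slide 2 had no test. Members that had not passed changed sign in daily mean as follows. With median scaling Scap was at -0.15, Mbtps1 at -0.20, Hmgcs1 at -0.12, Mvd at -0.20 and Sqle at -0.013. With slide as a fixed block Insig2 was at -0.40, Mbtps1 at -0.059, Hmgcs1 at -0.067, Sqle at -1.80, Sc5d at 0.73 and Stard4 at 0.0030. Without whole times, Scap was at -0.021 (ZT4), Mbtps1 at -0.044 (ZT8) and -0.043 (ZT20), Mvd at -0.0038 (ZT0), -0.036 (ZT4) and -0.23 (ZT12), and Sqle at -0.036 (ZT12). Fdps was at 0.063 and Lss at 0.096 without ZT16, and Nsdhl at 0.073 without ZT4 and 0.060 without ZT16. Without single DKO samples, Sqle was at -0.013 (ZT0) and -0.091 (ZT12), Hmgcs1 at -0.019 (ZT12), Mvd at -0.12 (ZT12) and -0.062 (ZT20), Mbtps1 at -0.023 (ZT20), and Fdps, Lss and Hsd17b7 at 0.014, 0.061 and 0.014 (ZT16). Without single WT samples, Mbtps1 was at -0.030 (ZT8) and Mvd at -0.029 (ZT0), -0.015 (ZT4) and -0.070 (ZT12). Leaving out single arrays, Mbtps1 ran from -0.023 to 0.089 and Mvd from -0.0053 to 0.077. The samples on slide 2, DKO ZT16 and ZT20 against WT ZT0 and ZT4, gave no daily mean, since genotype and time of day cannot be told apart there. Their differences, with no test, had the other sign for Insig2 (-0.31), Mbtps1 (-0.14), Hmgcs1 (-0.25), Mvd (-0.88), Sqle (-0.93) and Sc5d (0.13).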
